A study of Mus musculus with 6 samples.

Results

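The neurons described here are 89 nuclei of the mouse colon chosen by 5 genes: Vip (vasoactive intestinal peptide), Gal (galanin), Ntng1 (netrin-G1, a synaptic adhesion protein), Klhl1 (a kelch-like actin-binding protein) and Scgn (secretagogin, a calcium sensor). The deposited files held 11040 barcodes, of which 3461 passed a minimum of 300 genes and a ceiling of 5% on the share of unique molecular identifiers (UMIs, counts of distinct transcripts) from the mitochondrial genome. A barcode was taken as a neuron when it had at least 3 UMIs over Elavl4, Snap25, Syt1, Celf4, Rbfox3, Snhg11 and Ret, which left 603 nuclei. A neuron was a member when its UMIs of the 5 genes numbered at least 2 and exceeded its UMIs of each of 3 other sets, namely Nos1, Thsd7b, Oprd1, Vwa5b1 and Bves (the Nos1 set), Penk, Tac1, Bnc2, Oprk1 and Satb1 (the Penk and Tac1 set), and Nmu, Cdh8, Gpr149, Ano2 and Dgkg (the Nmu set). Members made up 14.8% of the neurons. The Nos1 set led in 165 other neurons, the Penk and Tac1 set in 212, the Nmu set in 47, and no set in 90.

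Enteric inhibitory motor neurons relax the muscle of the gut wall by releasing nitric oxide, made by the enzyme that Nos1 encodes, together with vasoactive intestinal peptide. Vasoactive intestinal peptide is also made by secretomotor and vasodilator neurons of the submucosa, which make the epithelium secrete and widen vessels, and galanin is found in both. The muscle-relaxing neurons are usually recognised by Nos1 and Vip in the same cell, while Vip without Nos1, along with Glp2r and Calb2, is a pattern described for neurons that act on the mucosa.

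All 6 libraries were single-nucleus libraries from wild-type C57BL/6J mice, a common laboratory strain, and held nuclei from total colon that had been sorted on a DNA stain and on INTACT, a nuclear tag. Control had 2 libraries. The 3 Stress libraries came from mice held in restraint each day over 7 days, and the single Dexamethasone library from mice given injections of that synthetic glucocorticoid over 7 days. Since no label ties a library to its own animal, a p-value here measures how far these libraries spread, which may be technical. In the test of differences between responses that spread was pooled over genes. With 1 Dexamethasone library, every test of that group assumes that it varies like the others, and the counting software also changed with that group (Cell Ranger 4.0.0 for Control and Stress, 5.0.1 for Dexamethasone), so that the 2 cannot be told apart.

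The libraries held 6057994 to 14838057 UMIs each, and any pair of libraries shared 0 to 1 kept barcodes (3 over all pairs). A doublet caller marked 55 of the 3461 nuclei (1.59%), among them 2 members, and they were kept. The members were few and uneven in depth. The Control libraries held 27 and 10 members, the Stress libraries 5, 17 and 18, and Dexamethasone 12. The UMI sums of the members, in that order of libraries, were 100653, 59900, 38216, 204509, 161823 and 85613, and a single nucleus supplied 59.5% of the sum in Stress 1 and 48.9% in Dexamethasone, against 15.0% to 29.5% in the other 4. The median member had 4603 UMIs, close to the 4512.5 of the other neurons. In Dexamethasone the median member had 1214 UMIs, and 6 of the 10 members with under 1000 UMIs were from it. Mitochondrially encoded genes gave a median of 0.182% to 0.770% of the UMIs in the members of the Control and Stress libraries and 1.99% in those of Dexamethasone.

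The values of the 5 chosen genes describe the choice and carry no test. A member had a median of 14 UMIs of them, from 2 to 695, and 12 members stood at the minimum of 2 while 10 led by a single UMI. Just outside, 6 neurons had 1 UMI of the 5 genes and none of the other sets, 5 had 2 or more but tied with another set, and 4 were 1 UMI behind. Ntng1 was found in 79.8% of the members, Vip in 69.7%, Scgn in 40.4%, Klhl1 in 22.5% and Gal in 21.3%. Among the 2858 nuclei outside the neurons, whose median depth was 2299 UMIs, these shares were 3.92%, 7.31%, 1.16%, 0.980% and 3.36% in the same order, the background against which shares are read, since free RNA gives UMIs in such nuclei. No member had all 5 genes, 38 had 3 or more, and 16 had only 1. After every nucleus was thinned to 1000 UMIs, the share with Ntng1 was 62.0% of 79 members against 4.69% of 448 other neurons, and the share with Gal 8.86% against 4.24%. Gal was not most frequent in the members, since 10.7% of the thinned and 29.1% of all nuclei of the Nos1 set had it, against 8.86% and 21.3% of the members.

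Vip stood at 9.04 and 15.7 UMIs per 10000 UMIs of the members in Control 1 and 2, at 13.6, 48.5 and 19.0 in Stress 1, 2 and 3, and at 73.5 in Dexamethasone. The high values came from single nuclei: 540 of the 629 Vip UMIs of the Dexamethasone members lay in 1 nucleus of 41883 UMIs, and the deepest Stress 2 member, with 33491 UMIs, held 618. Gal stood at 1.19 and 5.68 in Control, 0.262, 16.6 and 5.13 in Stress, with 0.117 in Dexamethasone, and 338 of its 471 UMIs lay in 1 Stress 2 nucleus. Ntng1, at 17.5 and 25.2, 26.2, 15.1 and 14.6, and 10.6, was the most even of the 5 across libraries. Klhl1 stood at 1.19 and 7.18, then 1.57, 4.30 and 3.28, with no UMI in Dexamethasone. The Control and Stress ranges overlapped for Vip, Gal, Ntng1 and Klhl1.

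The label of Vip and Gal inhibitory motor neurons held for only some of the nuclei. Vip or Gal was found in 65 of the 89, and 24 had neither and were members through Ntng1, Klhl1 or Scgn. Nos1 was found in 40 members (44.9%), against 3.92% of the nuclei outside the neurons, and 32 of them also had Vip. Vip and Klhl1 met in only 3 nuclei, whereas Klhl1 and Ntng1 met in 18 and Vip and Scgn in 30. Gal was the least frequent of the 5 genes, and Ntng1 had the most UMIs of them in 34 members, Vip in 32 and Gal in 4. The nuclei are therefore called only members here, after the rule of 5 genes, and 3 kinds of nuclei were set apart among them after these values had been seen, so that none of their differences was tested: 32 nuclei with Vip and Nos1, 31 with Vip or Gal and no Nos1, and 16 with Klhl1 and neither Vip nor Gal. Another 10 fell into none of these. The median depths of the 3 kinds were 7406.5, 2742 and 4379 UMIs, so the absence of a UMI weighs least in the kind without Nos1.

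**Figure D1:**
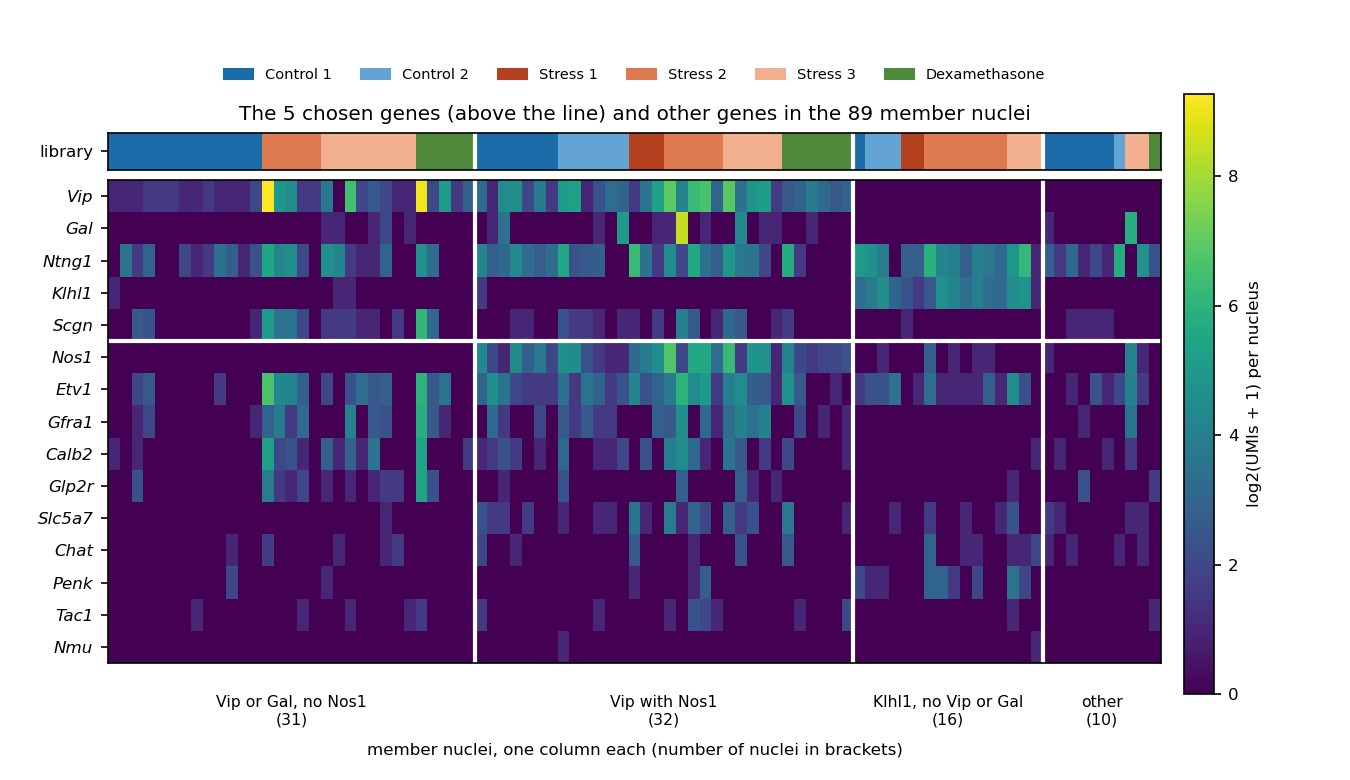
Each column is 1 of the 89 member nuclei, arranged by kind and then by library (upper colour strip), and each cell gives log2(UMIs + 1) of a gene; the 5 genes of the rule lie above the white line. Vip and Klhl1 fill separate blocks of columns, and Nos1 fills the block of 32 nuclei, because the kinds were defined by these genes.

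Outside the genes that defined them, the 3 kinds differed in many others. In the 32 nuclei with Vip and Nos1, the genes that stood furthest above the other 2 kinds were Col25a1, a membrane collagen, at 11.4 against 0.343 UMIs per 10000 (33.4 times), Cmah, at least 32.7 times, Kirrel3, a synaptic adhesion protein, 27.7 times, and the cyclic nucleotide phosphodiesterase genes Pde1a (18.7 times) and Pde1c (14.7 times). Slc5a7, the choline transporter, was also highest there, at 2.34 UMIs per 10000 in 18 nuclei. In the 31 nuclei with Vip or Gal and no Nos1 the leading genes were Tcerg1l (at least 33.7 times), Prkg1, the cyclic GMP-dependent kinase (12.5 times), Cpne4 (12.2 times), Robo1 and Dcc, both guidance receptors (10.1 and 7.13 times), and Glp2r, the receptor for glucagon-like peptide 2 (8.45 times). Calb2, calretinin, stood at 6.11 UMIs per 10000 in these nuclei, against 2.96 with Nos1 and 0.10 in the Klhl1 nuclei. Glp2r was found in 12 of the 31, and 54.5% of its UMIs in them came from the nucleus of 41883 UMIs. Some of the 31 had few Vip UMIs and more UMIs of epithelial markers. In 2 Control 1 nuclei, 2 Vip UMIs each stood beside 11 and 17 epithelial ones. Such low Vip counts cannot be told from free RNA, since 7.31% of the nuclei outside the neurons had Vip.

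The 16 Klhl1 nuclei differed from both other kinds in the levels that follow. Their leading genes were Zbbx (at least 54.7 times the other 2 kinds), Nxph2, a neurexophilin (28.7 times), Stac, an adaptor of calcium channels (21.5 times), Pcdh7, a protocadherin (17.3 times), Dlc1 (14.3 times) and Tenm4, a teneurin (12.8 times). Pcdh7 and Dlc1 were each found in 15 of the 16, in 5 libraries. Ebf1, a transcription factor, stood at 0.20 UMIs per 10000 in them, against 11.9 in the nuclei with Vip and Nos1 and 6.47 in those without Nos1, and Trhde, an enzyme that breaks down thyrotropin-releasing hormone, had no UMI against 3.80 and 1.62. Cntn5, a contactin, was at 84.8 UMIs per 10000 against 19.8 and 7.62, and Gna14, a G protein subunit, at 7.61 against 0.748 and 0.574. None of the 16 came from Dexamethasone and 7 came from Stress 2. The deepest of the 16, a Stress 3 nucleus of 27346 UMIs, was called a doublet. It had 142 UMIs of smooth muscle markers beside 52 of the 5 chosen genes, and its part in these levels was not tested. A single nucleus supplied 21.4% to 33.3% of the UMIs of each leading gene named for this kind.

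The share of members among the neurons was much alike in the 6 libraries. It was 16.7% in Control 1 (95% exact binomial interval 11.3% to 23.3%, counting error only) and 14.3% in Control 2 (7.07% to 24.7%). It was 13.5% in Stress 1 (4.54% to 28.8%), 14.2% in Stress 2 (8.47% to 21.7%), 14.3% in Stress 3 (8.69% to 21.6%) and 13.6% in Dexamethasone (7.25% to 22.6%). Control averaged 15.5% ± 1.68 (SD, n = 2) and Stress 14.0% ± 0.416 (SD, n = 3). The difference of -1.49 percentage points was not distinguishable from 0 (exact permutation test over libraries, two-sided, p = 0.4, the smallest possible being 0.2). With the nuclei of at least 1000 UMIs thinned to that number before the rule was applied, the difference was 1.75 points (exact permutation p = 0.6). Its sign was thus not the same in every setting, and the cause was not tested. The make-up differed more than the share. Nuclei with Vip and Nos1 were found in every library (7, 6, 3, 5, 5 and 6 from Control 1 to Dexamethasone), while nuclei with Vip or Gal and no Nos1 numbered 13, 0, 0, 5, 8 and 5 in the same order and were therefore missing from Control 2 and Stress 1. A group level of the members is in this way also a level of a mixture that differed between libraries, and its part in the results was not tested.

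**Figure D2:**
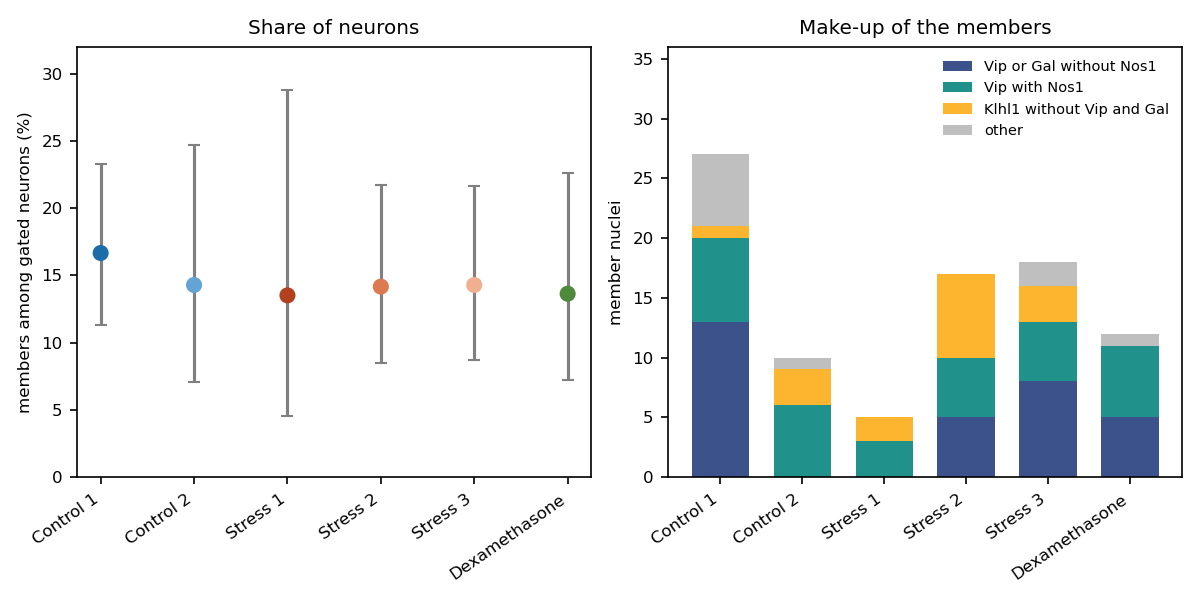
Left, the share of members among the neurons of each library, with 95% exact binomial intervals; right, the number of member nuclei of each kind in each library. All 6 shares lie between 13.5% and 16.7%, whereas the kind with Vip or Gal and no Nos1 is absent from Control 2 and Stress 1.

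Some members carried RNA of other cell classes. In 12 of them the UMIs of 1 marker list (glia, smooth muscle, fibroblast, epithelium, macrophage or endothelium) exceeded those of the 5 chosen genes, and in 23 they came to at least 1 per 2 of them: 9, 1, 0, 2, 6 and 5 from Control 1 to Dexamethasone. The 10 epithelial markers summed to 8.05 and 6.18 UMIs per 10000 in Control, 1.57, 4.45 and 9.58 in Stress, with 11.1 in Dexamethasone. The 8 smooth muscle markers summed to 1.39 and 1.84, then 3.40, 2.69 and 13.5, and 8.53, so that all Stress libraries lay above both Control libraries. The 12 glial markers summed to 0.501 to 0.785 in Control and Stress and to 2.22 in Dexamethasone, with Fabp7 and Entpd2 at 0. Of the 8 fibroblast markers the sums were 0 to 1.54. Macrophage markers reached at most 0.371, with Cd68, Csf1r, Ptprc and Cd163 at 0, vascular endothelial markers at most 0.695, with Kdr and Flt1 at 0, and enterochromaffin markers at most 0.785, with Tph1, Neurod1 and Gcg at 0. Lymphatic endothelial markers stood at 0.742 in Stress 3 and at 0 elsewhere. The 7 markers listed for interstitial cells and pericytes summed to 7.15 to 14.4. That list holds Etv1 and the enterochromaffin list Chgb, both also genes of neurons, so neither list was used to mark members.

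Against the 514 other neurons, the members had more RNA of Glp2r, of the catecholamine enzyme gene Dbh and of 4 potassium channels, and less of the alpha-7 nicotinic receptor, of several adhesion molecules and of 5 genes listed as other neuropeptides and granins. Enteric transcription factors went both ways, with 5 higher and 5 lower, as did peptide receptors, with Glp2r and Tacr1 higher and Calcrl lower. Because the 5 genes had been picked with clusters of these same nuclei known, this comparison describes the set and is no test of it, and the fold changes are given with their standard errors (SE) and without p-values. UMIs were summed per library and class, scaled by TMM and fitted with edgeR, with the library as a block. Of 5413 genes fitted outside the gate sets, 316 (5.84%) passed an adjusted p of 0.05, 130 higher (2.4%) and 186 lower (3.44%) in the members, and the median log2 fold change of all of them was -0.04.

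Glp2r stood at 0.894 and 0.668 UMIs per 10000 in the members of Control 1 and 2, at 0, 1.27 and 0.989 in Stress, with 5.61 in Dexamethasone, against 0 to 0.253 in the other neurons. The members were higher in 5 of the 6 libraries, the exception being Stress 1, where no neuron had a UMI of it. The log2 fold change was 3.82 ± 0.36 (SE). Dbh, which encodes dopamine beta-hydroxylase, the enzyme that makes noradrenaline, stood at 0.894 and 1.00 in Control, 0.785, 0.978 and 1.30 in Stress, with 4.44 in Dexamethasone, above the other neurons (0.0456 to 0.273) in all 6 libraries (log2 fold change 3.11 ± 0.40). Single nuclei supplied much of both: 87.5% of the Glp2r and 89.5% of the Dbh UMIs of the Dexamethasone members lay in 1 nucleus. Outside the neurons, Glp2r was at 0.187 to 0.666 and Dbh at 0 to 0.0375 UMIs per 10000.

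Ebf1 stood at 10.7 and 9.02 UMIs per 10000 in Control, 3.66, 7.73 and 9.52 in Stress, with 4.56 in Dexamethasone, above the other neurons of the same library throughout (0.137 to 2.87; log2 fold change 2.43 ± 0.30). Etv1, a transcription factor of inhibitory motor neurons, was higher by 1.56, Tbx3 by 1.50, Zfhx3 by 1.75 and Pbx3 by 0.74 on the log2 scale. Kcnd2, a channel of the A-type potassium current, stood at 49.5 and 82.3, then 32.2, 60.7 and 58.8, and 40.6, against 8.57 to 17.5 in the other neurons (log2 fold change 1.94 ± 0.22), and no library overlapped. Kcnh7, another potassium channel, was higher by 2.41 ± 0.22 on the log2 scale and Gna14 by 3.50 ± 0.34, in 6 of 6 libraries each. When the rule was reduced to Vip and Gal, which drops Ntng1, Klhl1 and Scgn together, the difference turned to -1.11 for Kcnh7 and from 2.38 to -0.50 for Kif26b, a kinesin, and that of Gna14 fell to 0.22 and that of Ptpro to 0.97, neither of which passed. Gna14 was also at 1.17 to 4.56 UMIs per 10000 outside the neurons, and Ebf1 at 1.97 to 4.21. The other named genes that were higher in 6 of 6 libraries were Tnr (tenascin-R, 2.52 ± 0.28), Rerg (a Ras-like GTPase, 2.51 ± 0.26), Nrp1 (neuropilin-1, 2.49 ± 0.35), Trhde (2.39 ± 0.31), Frmpd1 (2.33 ± 0.30) and Ptpro (a receptor phosphatase, 1.96 ± 0.27).

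Chrna7, the alpha-7 nicotinic acetylcholine receptor, had 2 UMIs in all members, 1 nucleus each in Control 1 and Stress 2, against 0.718 to 1.25 UMIs per 10000 in the other neurons. The ratio of the pooled counts was 34.0 in favour of the other neurons (95% counting interval 9.37 to 282). Dnah11, a dynein heavy chain, also had 2 UMIs, a ratio of 25.7 (7.06 to 213). Cdh12, a cadherin, stood at 0.199 and 0.167 in Control, 0, 0.0489 and 0.742 in Stress, with 0 in Dexamethasone, against 2.02 to 3.31 (log2 fold change -3.63 ± 0.43). Opcml, an adhesion protein of the IgLON family, stood at 0 to 0.618 against 0.785 to 3.75 (-3.01 ± 0.38), and Nxph1, a neurexophilin, at 0 to 0.199 against 1.02 to 3.18 (-4.81 ± 0.50). All 3 were lower in the members of every library. Nxph1 had no UMI in any of the 3 kinds, so the size of its difference rests on very few counts, which its SE does not show. Sst, somatostatin, stood at 1.99 and 0 in Control, 0, 0.196 and 0.0618 in Stress, with 0.234 in Dexamethasone, against 3.34 and 2.53, 0.137, 4.21 and 7.87, and 1.34 in the other neurons (log2 fold change -3.26 ± 0.55). The other lower genes named by the rule were Fras1 (-4.17 ± 0.43), Vgll3 (-3.90 ± 0.48), Gda (guanine deaminase, -3.42 ± 0.45), Olfm3 (-3.29 ± 0.41), Mgat4c (a glycosyltransferase, -3.28 ± 0.36) and Cdc14a (a phosphatase, -3.22 ± 0.37), each lower in 6 of 6 libraries.

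By gene list, set against 2.4% higher and 3.44% lower over all genes fitted, the potassium and other voltage-gated channels had 4 of 36 fitted members higher and 0 lower (Kcnh7, Kcnd2, Kcnq5 by 1.12 and Kcnj3 by 0.91 on the log2 scale; median of the list -0.09). Receptors for fast and metabotropic glutamate and GABA transmission had 0 of 20 higher and 6 lower, among them Grik1 (-1.73) and Gabrg3 (-1.83), with a median of -0.22. Neuropeptides outside the rule had 0 of 11 higher and 5 lower (Sst, Grp at -2.69, Cartpt at -1.60, Calcb at -2.69 and Chgb at -1.72), with a median of -0.94. Guidance and adhesion genes had 5 of 40 higher and 11 lower, with a median of -0.34. Transcription factors of enteric neurons split evenly, with 5 of 24 higher and 5 lower (Rora, Nfib, Casz1, Sox6 and Ebf3) and a median of -0.04. Of 9 cholinergic genes, Chrm3, a muscarinic receptor, was higher (1.76), Chrna7 and Chrm2 were lower, and the median was 0.32. None of 8 glucocorticoid target genes and none of 15 immediate early genes passed.

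**Figure D3:**
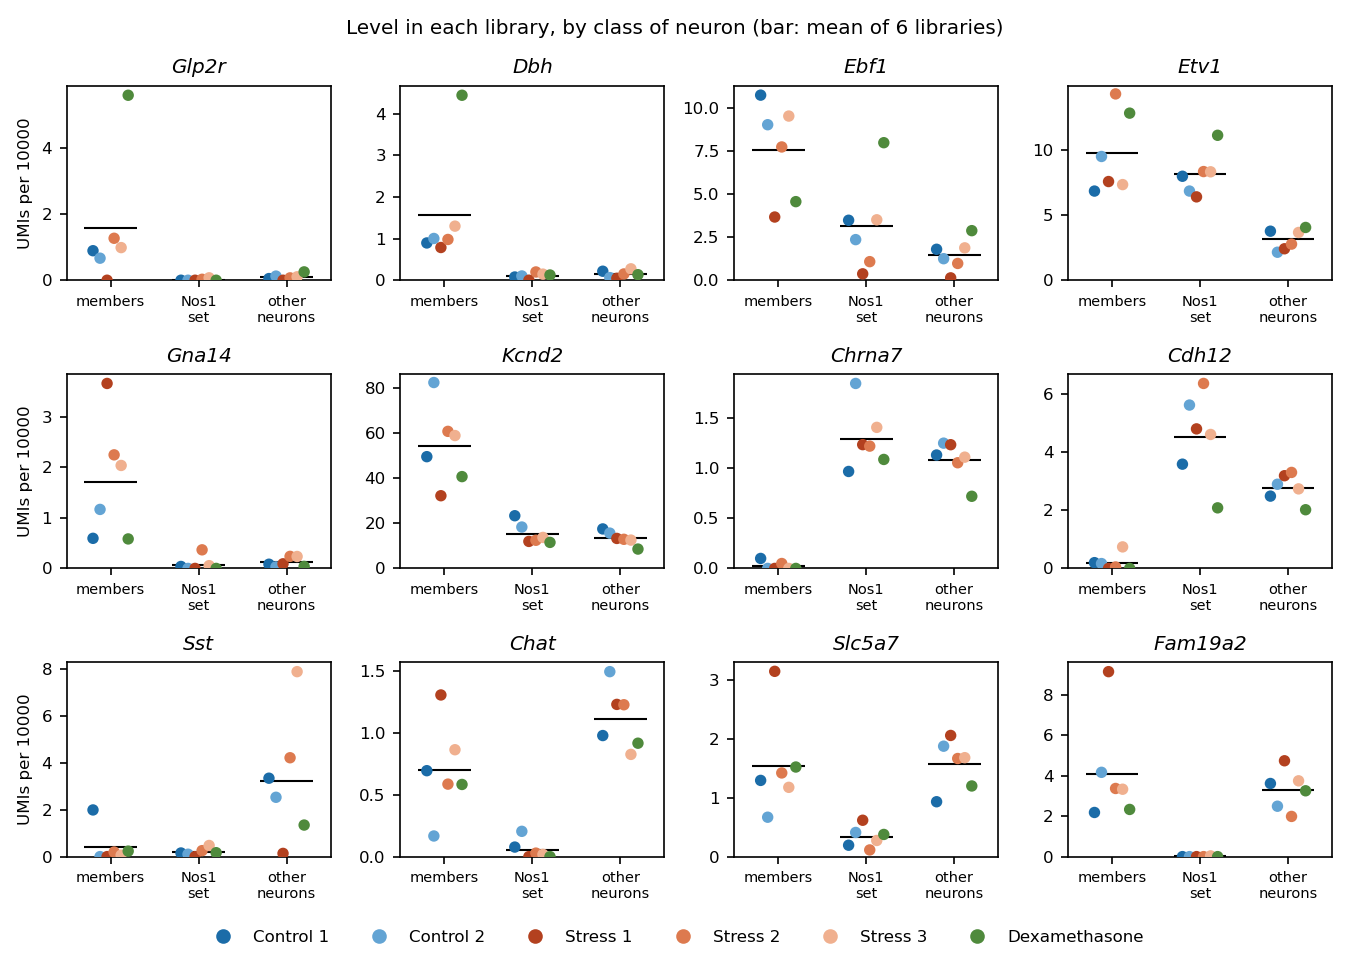
Each point is the level of a gene in 1 library, in UMIs per 10000 UMIs of the class, in the members, the Nos1 set and all other neurons (which include the Nos1 set); bars are means of 6 libraries. Kcnd2 and Dbh lie above both other classes in every library, Chrna7 and Cdh12 lie below them, and Slc5a7 and Fam19a2 lie above the Nos1 set in every library but overlap all other neurons.

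The members were also compared with the 165 nuclei led by the Nos1 set alone, and Vip was found in 40.6% of these. The rule itself set these 2 classes apart, so this comparison too describes them and is no test of them. Of 3724 genes fitted, 498 (13.4%) passed, 279 higher (7.49%) and 219 lower (5.88%) in the members, with a median log2 fold change of 0.03. Fam19a2, a secreted chemokine-like protein, stood at 2.19 and 4.17 UMIs per 10000 in Control, 9.16, 3.37 and 3.34 in Stress, with 2.34 in Dexamethasone, while the Nos1 set had 2 UMIs in all (ratio 273, 95% counting interval 74.7 to 2267). The other neurons as a whole stood at 1.99 to 4.75, which overlapped the members. Of the 225 Fam19a2 UMIs of the members, 128 lay in the 16 Klhl1 nuclei. Calb2 stood at 1.39 and 2.17, then 1.05, 4.55 and 2.90, and 5.37, against 0.270 to 0.420 in the Nos1 set (log2 fold change 3.14 ± 0.30), and the libraries did not overlap.

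Transmitter genes also differed between the members and the Nos1 set. Chat, choline acetyltransferase, stood at 0.695 and 0.167, then 1.31, 0.587 and 0.865, and 0.584, against 0 to 0.205 (log2 fold change 3.85 ± 0.78), and in Control 2 it was not higher (0.167 against 0.205). Slc5a7 stood at 0.668 to 3.14 against 0.113 to 0.616 (2.33 ± 0.33), without overlap. Over all genes fitted here, 7.49% were higher and 5.88% lower. Of 8 cholinergic genes fitted, 4 were higher and 2 lower. Of 5 genes listed as secretomotor markers, Calb2, Glp2r (5.43), Slc5a7 and Chat were higher and 1 was lower. These 4 did not peak in the same kind. The 31 nuclei with Vip or Gal and no Nos1 held 77 of the 103 Glp2r UMIs but 1 of 90 for Slc5a7. For Slc5a7, 75 lay in the nuclei with Vip and Nos1. Chat was highest in the Klhl1 nuclei (1.40 UMIs per 10000, 50% from 1 nucleus). Chat was found in 23.6% of the members and 30.2% of the other neurons, and Slc5a7 in 31.5% and 31.7%. Thinned to 1000 UMIs, these shares were 7.59% and 9.60%, then 10.1% and 6.92%. Of 6 inhibitory motor markers outside the rule, 1 was higher and 4 were lower, among them Gfra1, the receptor for glial cell line-derived neurotrophic factor, at 1.57 to 7.59 against 6.45 to 7.51 UMIs per 10000. Etv1 was at 6.86 to 14.3 in the members and 6.41 to 11.1 in the Nos1 set, and these ranges overlapped.

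Further genes above the Nos1 set in 6 of 6 libraries were Fam19a1 (5.71 ± 0.35), Tenm4 (5.49 ± 0.55), Ano5 (a membrane protein of the anoctamin family, 5.07 ± 0.47), Cpne8 (a copine, 4.93 ± 0.37), Sv2c (a synaptic vesicle protein, 4.38 ± 0.53), Lrfn2 (4.34 ± 0.53) and Cux2 (a transcription factor, 4.25 ± 0.42). With the rule reduced to Vip and Gal, Ano5 turned to -0.67, and Fam19a2 (1.82) and Sv2c (1.31) no longer passed. Below the Nos1 set stood Htr2c, a serotonin receptor without a UMI in the members (at least 18.1-fold lower, from a floor of 3 counts over the members), Chrna7 (ratio 41.0, interval 11.2 to 341), Dnah11 (54.6, 15.0 to 453), Cdh12 (-4.29 ± 0.41), Dach2 (-4.08 ± 0.45), Opcml (-3.92 ± 0.36), Rgs22 (-3.52 ± 0.60) and Fras1 (-3.33 ± 0.55).

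The stress comparison asks what 7 days of restraint did to these neurons. No gene passed: 0 of 2320 (0%) at an adjusted p of 0.05 in edgeR's quasi-likelihood test, with 174 (7.5%) at an unadjusted p under 0.05, 2 called by DESeq2 and a median log2 fold change of -0.01. In each direction, the 5 genes with the smallest p are given as values. This choice favours genes whose groups lie apart, and the share of all tested genes that do so was not counted. With 2 against 3 libraries, even groups fully apart cannot fall below p = 0.2 in an exact permutation test. Tmem30a, a subunit of lipid flippases, stood at 1.19 and 0.835 UMIs per 10000 in Control and 4.97, 4.06 and 3.65 in Stress (log2 fold change 1.98 ± 0.39, edgeR adjusted p = 0.265). Tubb5, a beta-tubulin, stood at 0.497 and 0.668 against 3.40, 2.20 and 2.22 (2.11 ± 0.47, edgeR adjusted p = 0.324). Scg2, a protein of peptide-containing vesicles, stood at 1.19 and 1.34 against 3.93, 4.50 and 3.52 (1.68 ± 0.38). In these 3 genes every Stress library lay above both Control libraries. The median depth of the members did so too, at 6670 to 8684 UMIs in Stress against 2592 and 5206.5 in Control. Its part in this comparison was not tested. Hsp90ab1, a heat shock protein of the HSP90 family, had a log2 fold change of 1.66 ± 0.39. Of 15 listed heat shock genes 5 were tested, all with values above 0 (median 0.97), without any passing. A gene could enter this fit through its level in Stress libraries alone, so that shared sign is not read as a response. Peak1, a cytoskeletal pseudokinase, stood at 14.4 and 3.51 against 69.6, 27.7 and 57.3 (2.49 ± 0.59).

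In the other direction, Taco1, an activator of mitochondrial translation, stood at 10.0 and 3.51 UMIs per 10000 in Control and 1.57, 1.22 and 0.618 in Stress (log2 fold change -2.71 ± 0.49, edgeR adjusted p = 0.265). Chsy3, a chondroitin sulfate synthase, stood at 6.16 and 8.68 against 0.262, 1.52 and 3.03 (-1.98 ± 0.51, edgeR adjusted p = 0.375), and Kcnn2, a calcium-activated potassium channel, at 2.48 and 2.34 against 1.05, 0.391 and 0.927 (-1.77 ± 0.46). The groups did not overlap in any of the 3, which the choice by smallest p favours. Fam13b (-1.72 ± 0.46) and Tiam1 (an activator of Rac, -2.69 ± 0.74) followed. Of the genes set out for this comparison, Fos had a log2 fold change of -0.02 ± 0.62, Slc5a7 of 0.67 ± 0.52, Etv1 of 0.29 ± 0.42 and Nos1ap of -0.26 ± 0.68 (edgeR adjusted p of 0.826 to 0.998), and the other 14, Fkbp5, Chat and Glp2r among them, had too few UMIs to be tested. Without Control 2, 6 genes passed, all lower in Stress. Taco1 passed with DESeq2, with no filter on low counts and without Control 2 (-3.29), Peak1 with DESeq2 and with no filter, and Chsy3 with no filter. The summed smooth muscle markers were also higher in all 3 Stress libraries (2.69 to 13.5 UMIs per 10000) than in both Control libraries (1.39 and 1.84). With the 23 members rich in markers of another class left out, the log2 fold changes were 2.07 for Tmem30a, 2.60 for Tubb5 and -2.85 for Taco1, and 0 of 1884 genes passed in edgeR (164 at an unadjusted p under 0.05).

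In the Dexamethasone library, 8 of 3024 genes (0.265%) were higher than in Control and 0 were lower, with 341 (11.3%) at an unadjusted p under 0.05 and a median log2 fold change of -0.03. In 4 of them most UMIs lay in a single nucleus rich in markers of another cell class. Atp12a, a proton and potassium pump of the colonic epithelium, stood at 0.497 and 0.167 UMIs per 10000 in Control, 0, 0.196 and 0.0618 in Stress, with 8.64 in Dexamethasone (log2 fold change 4.56 ± 0.62, edgeR adjusted p = 0.0049). Trp53inp1, a p53-induced stress protein, stood at 0.298 and 0.334 in Control and 5.14 in Dexamethasone (4.04 ± 0.68, edgeR adjusted p = 0.0135), and Dstn, the actin-severing protein destrin, at 0.695 and 0.668 against 8.99 (3.74 ± 0.64). A single nucleus of 21215 UMIs held 70 of 74, 37 of 44 and 72 of 77 of the Dexamethasone UMIs of these 3 genes, and it had 57 UMIs of epithelial markers beside 58 of the 5 chosen genes. Slc24a3, a sodium, potassium and calcium exchanger, stood at 0.596 and 0.501 against 6.66 (3.60 ± 0.57, edgeR adjusted p = 0.0116), and 56 of its 57 UMIs lay in a nucleus with 45 UMIs of smooth muscle markers and 4 of the chosen genes. Outside the neurons these levels were 0.321 to 4.43 for Atp12a, 3.23 to 26.0 for Dstn and 2.22 to 9.41 for Slc24a3.

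The other 4 did not follow those nuclei. The mitochondrially encoded mt-Nd3, of respiratory complex I, stood at 0.695 and 0.334 in Control and 6.19 in Dexamethasone (log2 fold change 3.51 ± 0.53, edgeR adjusted p = 0.0093), and mt-Atp6, of the ATP synthase, at 6.26 and 3.51 against 42.2 (3.13 ± 0.51). The other neurons stood at 11.5 and 12.2 against 29.9 for mt-Atp6, and their median mitochondrial share was 2.02% in Dexamethasone against 0.456% to 0.50% elsewhere. Klhl32, a kelch-like protein, stood at 0.894 and 0.835 against 5.61 (2.72 ± 0.54), and Scg2 at 1.19 and 1.34 against 7.13 (2.54 ± 0.50, edgeR adjusted p = 0.0494), with 49 of its 61 UMIs in the nucleus of 41883 UMIs. With the 23 members rich in markers of another class left out, 55 genes passed, 22 higher and 33 lower, and these 4 stayed among them, while Slc24a3 turned to -1.30 and Atp12a, Dstn and Trp53inp1 had too few UMIs to be tested. Without the deepest member of each library, 11 passed, and mt-Nd3, mt-Atp6, Klhl32 and Scg2 did not. No gene passed when the rule was reduced to Vip and Gal. The count was 1 without Control 1, 5 without Control 2, and 26 without Stress 1 and also without Stress 2.

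Among genes that glucocorticoids induce, Fkbp5, a co-chaperone of the glucocorticoid receptor, stood at 0.795 and 0.334 UMIs per 10000 in Control, 0.262, 0.733 and 1.05 in Stress, with 2.34 in Dexamethasone (log2 fold change over Control 1.98 ± 0.72, edgeR adjusted p = 0.284). In the other neurons Fkbp5 stood at 0.349 to 0.646 in Control and Stress and at 3.13 in Dexamethasone. Of 27 listed glucocorticoid targets, 4 had enough UMIs to be tested, all with values above 0 (median 2.71), and 0 passed. Of 24 listed immediate early genes 7 were tested, all above 0 (median 1.91), and 0 passed. A gene could enter this fit through its level in the Dexamethasone library alone. A shared sign above 0 is favoured by that filter and is not read as a response. Glp2r had a log2 fold change of 2.84 ± 0.66 (edgeR adjusted p = 0.0822), with 42 of 48 UMIs in 1 nucleus. Nr3c1, the glucocorticoid receptor, had 1 UMI in the Dexamethasone members and 10 in the Control members (ratio 5.33, 95% counting interval 0.759 to 231).

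Of the genes lower in Dexamethasone, Cntn5 was the one of smallest p, at 24.2 and 42.7 UMIs per 10000 in Control, 41.3, 25.1 and 28.7 in Stress, with 4.67 in Dexamethasone (-2.81 ± 0.64, edgeR adjusted p = 0.0809). Galntl6 had no UMI in the Dexamethasone members (at least 21.5-fold lower than Control, from a floor of 3 counts over the group), Sema6a had 1 (ratio 24.5, interval 4.19 to 990), and Rgs6 and Gabrg3 had log2 fold changes of -3.29 ± 0.82 and -3.11 ± 0.78 (edgeR adjusted p = 0.112 for both). None of these 5 passed with all members. With the 23 members rich in markers of another class left out, Cntn5 (-2.89), Sema6a, Rgs6 and Gabrg3 (-4.54) passed as lower, and Glp2r (3.68) passed as higher. Cntn5 was the gene at 84.8 UMIs per 10000 in the Klhl1 nuclei, of which Dexamethasone had 0. It was also at 19.8 in the nuclei with Vip and Nos1, of which Dexamethasone had 6. The part of the make-up in the Cntn5 difference was not tested.

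**Figure D4:**
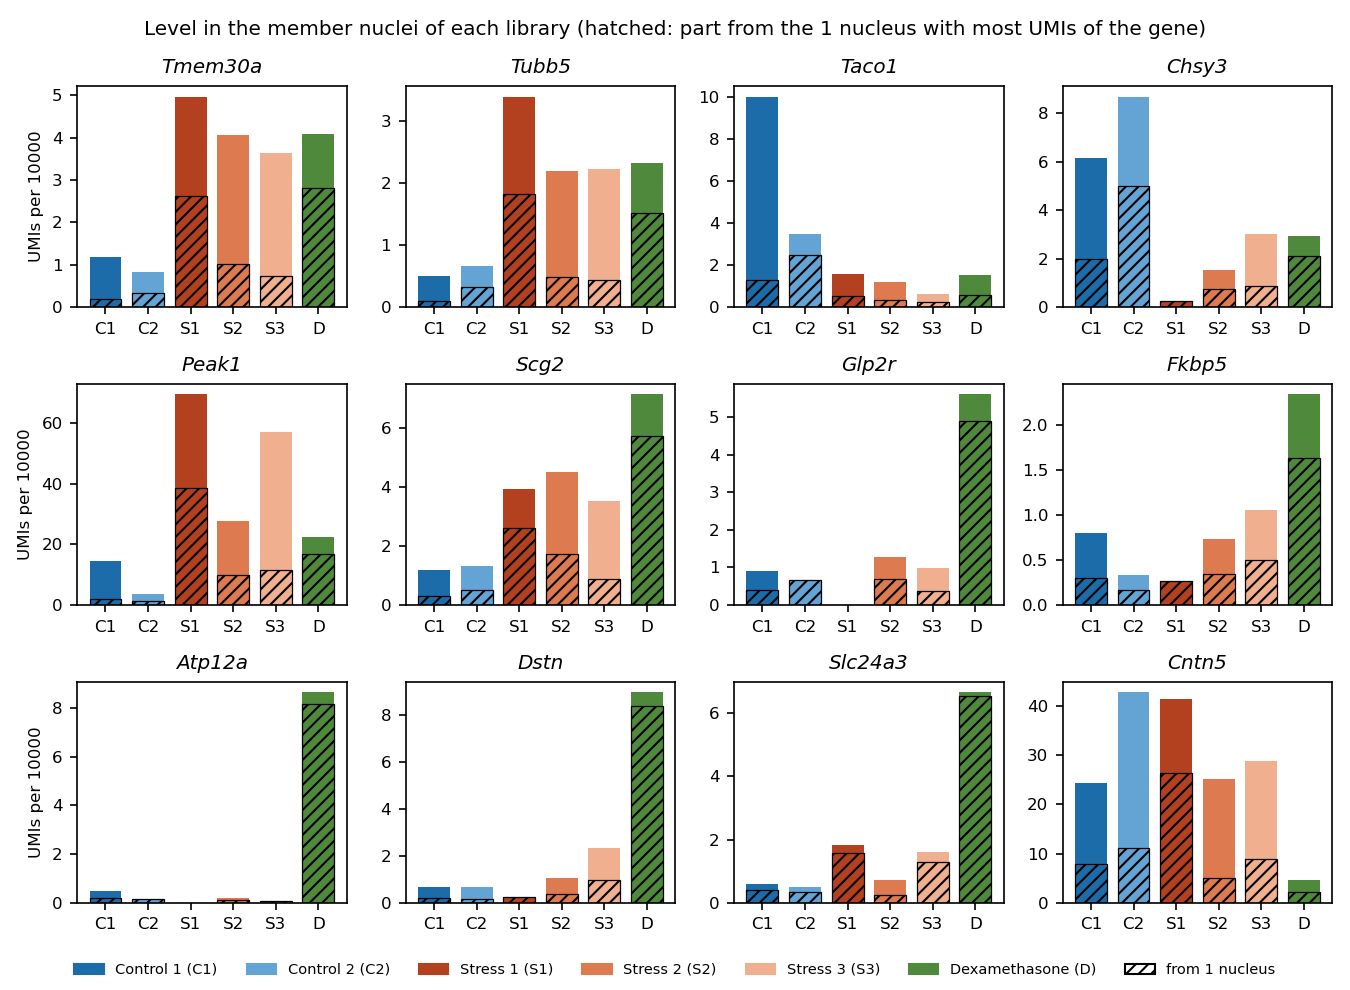
Bars give the level of a gene in the members of each library, in UMIs per 10000 UMIs, and the hatched part is the share of the nucleus with most UMIs of that gene. Tmem30a and Tubb5 are higher, and Taco1 and Chsy3 lower, in all 3 Stress libraries than in both Control libraries without passing the test. Their choice by smallest p favours such a pattern. The Dexamethasone bars of Atp12a, Dstn and Slc24a3 come almost wholly from 1 nucleus.

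Whether the members responded otherwise than the other neurons was tested as the difference of the 2 responses within 1 edgeR model with the library as a block. For stress, 3 of 6997 genes (0.0429%) differed, all lower in the members, with 255 (3.64%) at an unadjusted p under 0.05. For Dexamethasone 46 (0.657%) differed, 16 with a higher (0.229%) and 30 with a lower (0.429%) response in the members, with 522 (7.46%) at an unadjusted p under 0.05. DESeq2 called 0 in both. The median prior degrees of freedom of the edgeR model were infinite, so the spread was pooled over genes of like level. Its p-values do not measure how far the libraries spread in the single gene. The stress and Dexamethasone comparisons share the 2 Control libraries.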

How the data were processed

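The deposited files give UMI counts per gene and barcode, made by the authors with Cell Ranger 4.0.0 (Control, Stress) or 5.0.1 (Dexamethasone), per the file headers; the submitters' processing notes name versions 5 and 5.0 and the mm10 build. The sources used here do not state whether intronic reads entered the counts. Besides these, the deposited files hold gene names and barcodes (other values). The members, gene lists and tests were chosen with earlier results of these data known.

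UMIs were summed per library over the members, the other neurons or the Nos1 set. Genes were filtered with filterByExpr, scaled by TMM and tested with edgeR 4.0.16's quasi-likelihood F-test in R 4.3.3, adjusted by Benjamini-Hochberg over all genes fitted with a threshold of 0.05; the script was tested on simulated data. Stress against Control used 5 libraries, the other fits all 6, and gate genes got no test. The SE is the log2 fold change divided by the root of F. A ratio against 1 to 3 UMIs has an exact 95% interval, and a floor of 3 counts stands for 0; both cover counting error only. Shares were compared by exact permutation.

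Genes were named by rule: a set of 18 genes for the group comparisons, the 10 (12 or 8 between classes, with the same direction in 6 of 6 libraries) of largest log2 fold change in each direction that passed and reached an average log2 CPM of 6, up to 10 passing list members by smallest p, the 5 of smallest p where fewer than 5 passed, and up to 5 in each direction for differences of responses. Any further gene named for a list, a kind or the Nos1 set was chosen after its values were seen; the leading genes of a kind had a UMI in at least 1 of 3 of its nuclei and were ranked by their ratio to the other 2 kinds. Doublets were called with scrublet in scanpy 1.11.5 and left out only as an alternative. Alternatives were DESeq2 1.42.0, no filter on low counts, sums thinned to the lowest total, a stricter filter of nuclei (500 genes, 2% mitochondrial UMIs), a minimum of 3 UMIs with a lead of 2, only Vip and Gal in the set, doublets left out, each library left out, and a block for the replicate number. Those chosen after seeing the data were leaving out members rich in markers of another class (more UMIs than the chosen genes, or at least 1 per 2), leaving out the deepest member of each library, and thinning each neuron to at most 2000 UMIs.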

Additional observations from a re-analysis of the deposited data

Results flagged for a closer look

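The response of the members differed from that of the other neurons in 3 genes for stress and 46 for Dexamethasone in the edgeR test of the difference itself, and the 13 named by rule follow. The spread in this test was pooled over genes, so a gene led by 1 nucleus can pass. For stress the difference (members minus other neurons, log2) was -3.58 ± 0.64 for Adgrg6, an adhesion G protein-coupled receptor, -2.62 ± 0.51 for Luzp2 and -3.77 ± 0.80 for Sst (edgeR adjusted p = 0.0002, 0.0013 and 0.0051). Adgrg6 stood at 2.38 and 1.67 UMIs per 10000 in the Control members and at 0, 0.587 and 0.927 in the Stress members. The 2 groups did not overlap, which the choice of a passing gene favours. Luzp2 stood at 2.98 and 14.5 against 0, 1.47 and 4.02, with 73.6% of the Control 2 value from 1 nucleus. Sst was at 1.99 in Control 1 and 0 to 0.196 in the other Control and Stress libraries, and 80% of the Control 1 UMIs lay in 1 nucleus.

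For Dexamethasone the difference was 5.93 for Atp12a, 3.31 for Dstn, 3.91 for Grin3a, a glutamate receptor subunit, 3.20 for Klhl32 and 3.07 for Cdh6, a cadherin. It was -6.32 for St3gal4, -6.38 for Tanc1, -10.79 for Adarb2, -6.64 for Lrmda and -3.46 for Il1rapl1. Of the lower genes, St3gal4, Tanc1 and Lrmda had 1 UMI and Adarb2 had 0 in the Dexamethasone members. The ratio of Control to Dexamethasone members was 29.3 for St3gal4 (95% counting interval 5.05 to 1179), 7.47 for Tanc1 (1.14 to 316), 5.33 for Lrmda (0.759 to 231) and at least 3.02 for Adarb2. Of the UMIs of Atp12a and Dstn, 70 of 74 and 72 of 77 lay in 1 Dexamethasone nucleus with 57 UMIs of epithelial markers; the part of those cells in the difference was not tested.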

How the results depend on the processing

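Few nuclei and uneven depth limit these values. For Stress against Control the count of 0 became 2 with DESeq2, 12 with no filter on low counts, 4 with the replicate number as a block (Peak1 at 2.54 and Chsy3 at -2.95 among them), and 0 to 6 with a library left out; other settings gave 0. The labels state no pairing of libraries by replicate number. The deviations from the group means correlated by -0.0709 to 0.0709. These values cannot decide on a pairing, since the deviations of 2 Control libraries mirror each other. For Dexamethasone the count of 8 became 46 with no filter, 3 with thinned sums, 13 with the stricter filter of nuclei, 20 with a minimum of 3 and a lead of 2, 0 with only Vip and Gal, 14 without members richer in markers of another class than in the chosen genes, 55 without those with at least 1 per 2, 5 with neurons thinned to at most 2000 UMIs, and 1 to 26 with a library left out. These were not always the same genes: 1 of the 13, 7 of the 20, 4 of the 55 and 2 of the 5 with thinned neurons were among the first 8. DESeq2 called 6 genes higher and 2 lower in Dexamethasone, and 5 of them were among the first 8. Against other neurons the 316 became 156 with thinned sums, 191 with the stricter filter, 182 with thinned neurons and 200 to 310 with a library left out. Against the Nos1 set the 498 became 239, 326, 227 and 343 to 506, and 228 with only Vip and Gal. The difference of stress responses (3) became 0 with DESeq2 and with thinned sums, 1 with only Vip and Gal, without the deepest members and with thinned neurons, 5 without doublets, and 2 to 8 with a library left out. The difference of Dexamethasone responses (46) became 0 with DESeq2, 6 with thinned sums, 2 with only Vip and Gal, 95 without members with at least 1 marker UMI per 2, 22 without the deepest members, 3 with thinned neurons, and 8 to 86 with a library left out. The difference in share became 0.259 points with the stricter filter, 1.75 with nuclei thinned to 1000 UMIs, and -2.68 to -0.297 with a library left out. The causes were not tested.

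Log2 values that changed sign were these. In the stress comparison Fos became 0.081 without doublets, 0.00060 without the deepest members, 0.55 without Control 1, 0.15 without Stress 1 and 0.21 without Stress 2 (-0.40 to 0.55 with a library left out), and Etv1 became -0.0057 without the deepest members and -0.10 without Stress 2 (-0.10 to 0.50). For Dexamethasone, Chat became -0.19 without Control 2 (-0.19 to 1.76 with a library left out), and Slc5a7 became -0.30 with thinned sums, -6.10 with the stricter filter and -2.22 without members with at least 1 marker UMI per 2. Without these, Galr1 became -4.32, Slc24a3 -1.30 and the Dstn difference of responses -0.68. Etv1 became -0.016 with the stricter filter, Dstn -1.31 with only Vip and Gal, and Slc24a3 -2.16 with a minimum of 3 and a lead of 2 and -2.07 without members richer in markers of another class. With only Vip and Gal, Kcnh7 became -1.11 and Kif26b -0.50 against other neurons, Ano5 -0.67 against the Nos1 set, and the differences of responses 5.0 for Sst, -2.28 for Atp12a and -2.44 for Dstn. Without Control 1 the differences became 4.46 for Sst (-5.35 to 4.46 with a library left out) and 0.28 for Lrmda (-7.06 to 0.28). Of the genes named against other neurons, Gna14 and Ptpro kept their direction but did not pass with only Vip and Gal.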
